A study of Homo sapiens with 2 samples.

Results

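The 29 genes described here encode factors of nucleotide excision repair, and they were found in the deposited table by matching its Entrez gene IDs to the current symbols of a fixed list. All 29 had a value, out of 23033 genes with a value in the table, and all 29 were among the 13554 genes that reached at least 1 FPKM in at least 1 library. RNAseq compared control cells (genotype WT) with FZR1 ko cells, and both were treated with cisplatin at 2 µg per ml. There was 1 library per group, labelled T-47D, so no difference below has a replicate check and no test was made. The knockout line was made with lentiviral CRISPR/Cas9 and single cell cloning and is therefore 1 clone, and whether the control of the RNAseq carried the empty vector is not given in the sources used here. Cells without cisplatin were not analysed here, so every value is a level under the drug.

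Cisplatin crosslinks neighbouring bases on a DNA strand, and nucleotide excision repair is the main route by which cells remove such adducts. A lesion is found either by XPC and the DDB1-DDB2 complex anywhere in the genome, or by a stalled RNA polymerase II together with the Cockayne syndrome proteins. TFIIH then opens the DNA, XPA and the XPF-ERCC1 and XPG nucleases verify and cut out the damaged stretch, and polymerases and a ligase fill and seal the gap. FZR1, whose protein is also called Cdh1, activates the anaphase promoting complex, an E3 ubiquitin ligase.

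The promoters of 6 of the genes are shown, because 4 of them had the lowest (ERCC4, ERCC5) and the highest (MNAT1, XRCC1) ratios between the libraries and the other 2 (XPC, DDB2) are well known p53 targets of the pathway. Each runs from 250 bases before to 50 bases after the start of the gene in the RefSeq annotation of GRCh38.p14, which is the hg38 build of the study. Capitals mark matches on either strand to the GC box GGGCGG, the CCAAT box CCAAT, the E-box CACGTG, the ETS core CCGGAAG, the AP-1 site TGACTCA or the p53 decamer motif, and no 2 of these overlap in the sequences shown. ERCC4 lies at chr16:13919904-13920203 on the plus strand, ERCC5 at chr13:102845782-102846081 on the plus strand and XPC at chr3:14178552-14178851 on the minus strand. DDB2 lies at chr11:47214204-47214503 on the plus strand, MNAT1 at chr14:60734511-60734810 on the plus strand and XRCC1 at chr19:43575478-43575777 on the minus strand.
ERCC4: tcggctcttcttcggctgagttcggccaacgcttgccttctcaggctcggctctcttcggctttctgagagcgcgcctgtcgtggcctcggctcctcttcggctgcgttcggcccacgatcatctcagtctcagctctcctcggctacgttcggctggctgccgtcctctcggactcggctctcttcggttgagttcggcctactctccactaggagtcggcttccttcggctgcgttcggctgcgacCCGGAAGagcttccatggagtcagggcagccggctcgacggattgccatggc
ERCC5: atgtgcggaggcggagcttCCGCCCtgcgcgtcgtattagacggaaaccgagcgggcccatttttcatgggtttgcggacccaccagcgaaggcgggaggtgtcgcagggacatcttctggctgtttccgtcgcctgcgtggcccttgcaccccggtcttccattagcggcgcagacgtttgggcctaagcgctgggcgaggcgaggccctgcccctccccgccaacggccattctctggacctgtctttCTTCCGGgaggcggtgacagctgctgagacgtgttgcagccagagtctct
XPC: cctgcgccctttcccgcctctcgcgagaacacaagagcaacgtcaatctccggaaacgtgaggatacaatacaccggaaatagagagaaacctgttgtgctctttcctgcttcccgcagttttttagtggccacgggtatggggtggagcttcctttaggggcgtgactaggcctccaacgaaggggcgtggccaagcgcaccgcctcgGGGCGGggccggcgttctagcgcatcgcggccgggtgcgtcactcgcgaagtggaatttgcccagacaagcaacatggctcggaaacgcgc
DDB2: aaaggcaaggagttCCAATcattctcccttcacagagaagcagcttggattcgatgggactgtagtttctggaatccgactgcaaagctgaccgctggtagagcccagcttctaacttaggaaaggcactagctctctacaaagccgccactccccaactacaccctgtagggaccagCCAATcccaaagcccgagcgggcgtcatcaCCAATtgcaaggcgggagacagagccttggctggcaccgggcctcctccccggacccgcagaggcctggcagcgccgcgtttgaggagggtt
MNAT1: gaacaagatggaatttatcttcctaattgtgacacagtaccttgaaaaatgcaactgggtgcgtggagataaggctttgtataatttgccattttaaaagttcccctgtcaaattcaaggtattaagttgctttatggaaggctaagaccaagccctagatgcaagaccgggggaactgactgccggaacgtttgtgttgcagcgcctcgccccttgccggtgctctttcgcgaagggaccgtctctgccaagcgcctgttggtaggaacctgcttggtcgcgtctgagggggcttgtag
XRCC1: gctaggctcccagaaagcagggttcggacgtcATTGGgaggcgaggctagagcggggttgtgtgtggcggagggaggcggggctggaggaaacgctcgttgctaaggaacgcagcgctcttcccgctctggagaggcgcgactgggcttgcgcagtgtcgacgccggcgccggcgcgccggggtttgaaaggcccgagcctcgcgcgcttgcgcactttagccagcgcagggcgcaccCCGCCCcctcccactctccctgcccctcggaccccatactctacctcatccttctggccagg

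The ERCC4 and ERCC5 windows each held an ETS core at the start of the gene, and so did 10 of the 29 promoters (34.5%) somewhere in the window, against 10.7% of all 27305 promoters and 19.9% of those of genes kept. The GC box was present in 21 of the 29 (72.4%), among them XPC, ERCC5 and XRCC1, against 44.6% of all promoters and 69.9% of those of genes kept. DDB2 held the CCAAT box at 3 places and XRCC1 at 1, and 10 of 29 members held it against 35.7% of all promoters. The E-box was in 6 of 29 (20.7%) against 7.43% of all promoters and 10.2% of those of genes kept, and the AP-1 site was in 1 of 29 (GTF2H1, 3.45%), near the 4.92% of all promoters and 3.20% of those of genes kept. The p53 decamer motif was in 0 of the 29 windows, against 6.54% of all promoters and 5.25% of those of genes kept. It was thus also absent from the windows of XPC and DDB2, named above as p53 targets. MNAT1 held none of the motifs searched. These are matches of letters in a short window, and nothing about binding was measured.

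Values are FPKM, fragments scaled to transcript length and library size, so levels can be compared between genes. Differences are given as the log2 of the FZR1 ko value over the control value, each with 1 FPKM added, called the log2 ratio, and as the FZR1 ko level in percent of the control level without a pseudocount. The depth of the libraries is unknown, because FPKM holds no counts. The FPKM of all genes summed to 502589 in control and 500488 in FZR1 ko, and the log2 ratio of the genes kept had a median of -0.0048 with its 25th and 75th percentiles at -0.42 and 0.43. FZR1 itself had 12.28 FPKM in the control library and 10.10 FPKM in the knockout. An mRNA level does not show whether an edit of the gene removed the protein. The paper reports a western blot check of its FZR1 knockout. Of 12 luminal breast markers, 6 were below 1 FPKM in both libraries, including the defining ESR1, PGR, GATA3 and the E-cadherin gene CDH1, and PGR was listed at 0 in FZR1 ko. The 12 luminal markers summed to 1499 and 1834 FPKM, mostly from KRT8 and KRT18, and 12 mesenchymal or basal markers, 3 of them below 1 FPKM in both, summed to 435 and 457 FPKM, mostly from VIM. Of the 9 mesenchymal or basal markers kept, 3 were at least 2-fold higher in FZR1 ko, namely CDH2 with 2.97 and 15.31 FPKM, AXL with 16.02 and 37.84 FPKM and LOX with 0.92 and 3.62 FPKM, against 6.78% of all genes. At 1.5-fold 4 were higher, CAV1 with 18.36 and 31.41 FPKM being the other, and 1 was lower, SNAI2 with 7.05 and 3.86 FPKM, against 18.0% and 17.6% of all genes, and the median of the 9 was 0.51. Low ESR1, PGR, GATA3 and CDH1 beside high VIM are unlike a luminal line, although KRT8 and KRT18 were high. The label T-47D, that of a luminal line, was used as given and not checked. The part of the cell identity in the values below was not tested.

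**Figure D1:**
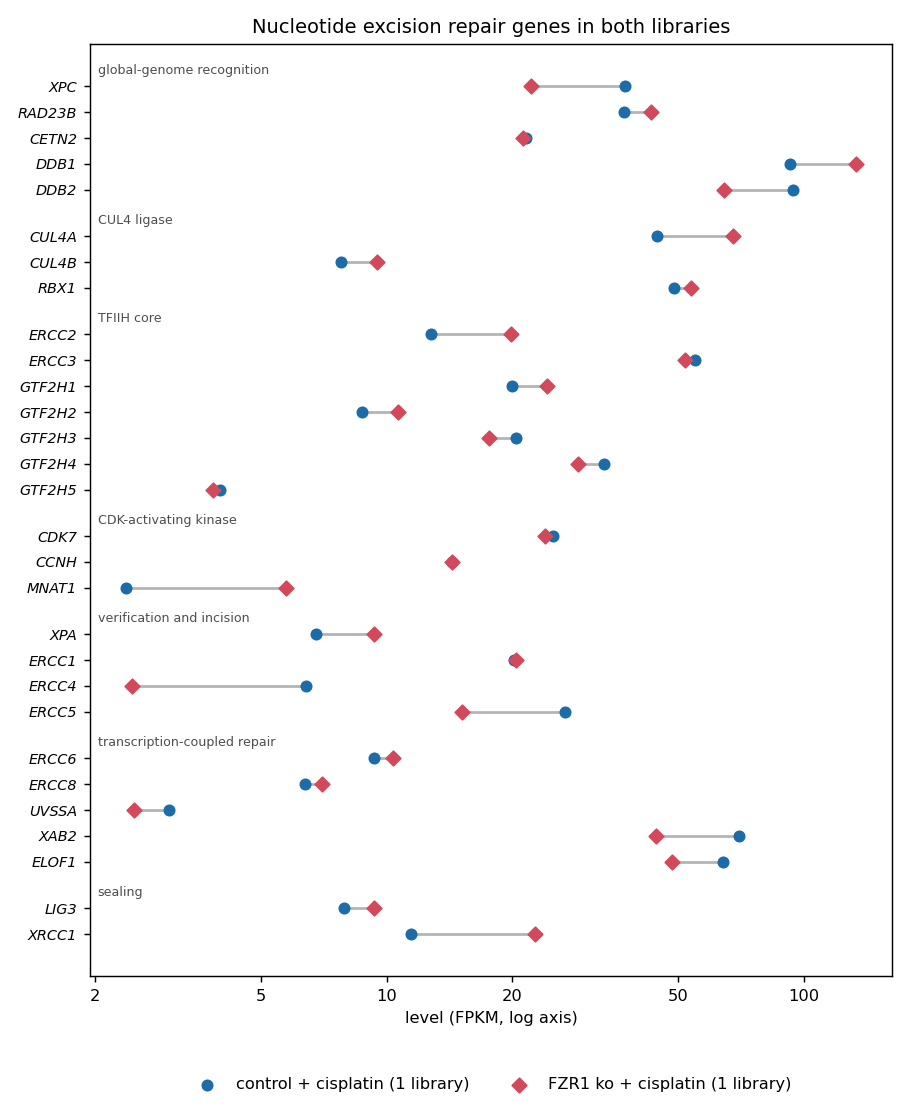
Level of each of the 29 genes in FPKM (log axis) in the control library (blue circle) and the FZR1 ko library (red diamond), both with cisplatin, grouped by role. ERCC4 drops from 6.41 to 2.45 FPKM and MNAT1 goes from 2.37 to 5.72 FPKM, while CCNH and ERCC1 have nearly the same value in both.

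The excision repair genes as a group stood at nearly the same level in both libraries. Their FPKM summed to 811 in control and 807 in FZR1 ko, 14 of the 29 lay lower in FZR1 ko against 15 that lay higher, and their median log2 ratio was 0.014 against -0.0048 over all genes kept. A single gene, ERCC4, was at least 2-fold lower and 0 were at least 2-fold higher, which is 3.45% of the 29, while 13.5% of all genes kept passed 2-fold, 6.72% lower and 6.78% higher. The count of 1 member was between 0 and 3 under the alternatives. MNAT1 passed 2-fold without a pseudocount, with 0.1 FPKM, after centring and after rescaling, XRCC1 with the gene span trend removed, and both with the GC and length trend removed. ERCC4 did not pass it with 5 FPKM or with the chromosome median subtracted. At 1.5-fold, 4 genes were lower (ERCC4, ERCC5, XPC and XAB2) and 4 were higher (MNAT1, XRCC1, ERCC2 and CUL4A), or 27.6% of the 29 against 35.6% of all genes. The share was 13.8% in each direction, against 17.6% of all genes lower and 18.0% higher. The background in the expression range of the members, 9921 genes of 2.74 to 113 FPKM on average, was similar, with 12.5% past 2-fold (6.23% lower, 6.24% higher) and 34.3% past 1.5-fold (17.0% lower, 17.3% higher). In bulk RNA a lower level may mean fewer cells with the transcript or less of it per cell, which cannot be told apart.

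The order of the genes by level was also largely shared, with a Spearman correlation of 0.93 over the 29 genes, which come from the same 2 libraries, and 0.93 over all genes kept. In control the highest member was DDB2 with 93.97 FPKM, followed by DDB1 with 92.69 FPKM, and the lowest was MNAT1 with 2.37 FPKM. In FZR1 ko the highest was DDB1 with 133.27 FPKM, followed by CUL4A with 67.54 FPKM, and the lowest was ERCC4 with 2.45 FPKM. XRCC1 moved from rank 19 to rank 12 and ERCC5 from rank 11 to rank 18, the longest moves in that order.

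**Figure D2:**
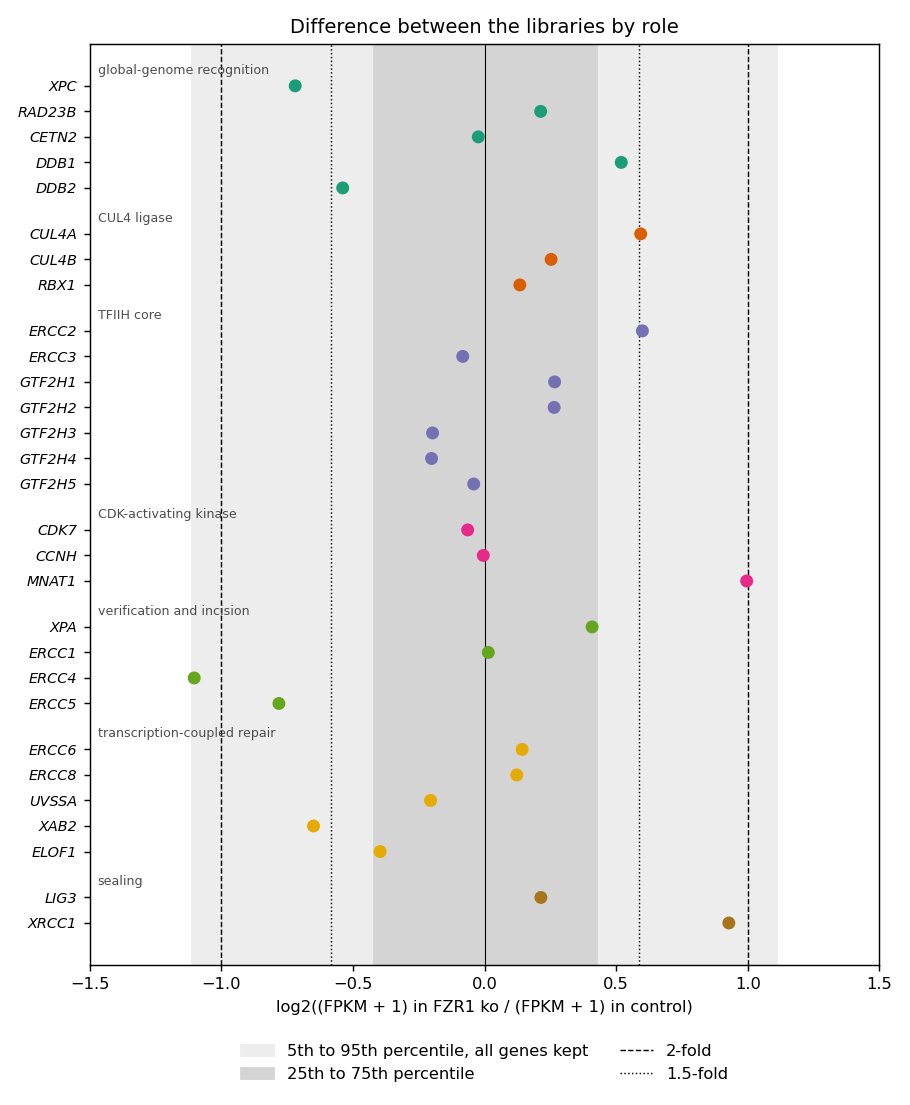
Log2 ratio of FZR1 ko over control for the 29 genes, grouped and coloured by role, with the spread of all 13554 genes kept as grey bands and the 1.5-fold and 2-fold limits as dotted and dashed lines. ERCC4, at -1.10, is the only gene outside the dashed lines, and MNAT1, at 0.996, lies just inside them.

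Genome-wide damage recognition was split between its subunits. XPC, which binds the distorted helix first, had 37.13 FPKM in the control library and 22.16 FPKM in the knockout, or 59.7% of the control level (log2 ratio -0.72). Its partner RAD23B, which stabilises XPC, had 36.95 and 42.99 FPKM (0.21), and CETN2, the centrin of the same complex, had 21.61 and 21.24 FPKM (-0.024). XPC therefore made up 50.1% of the sum of XPC and RAD23B in control and 34.0% of it in FZR1 ko. DDB2, the subunit that recognises ultraviolet photoproducts, had 93.97 and 64.37 FPKM, or 68.5% of control (-0.54). DDB1, the adaptor that joins DDB2 to the ligase, had 92.69 and 133.27 FPKM (0.52). The ratio of DDB2 to DDB1 mRNA was 1.01 in control and 0.483 in FZR1 ko, which does not give the make-up of the protein complex. Of these 5 genes 1, XPC, was at least 1.5-fold lower, near the 17.6% of all genes, and DDB1 and DDB2 lay just inside it on either side.

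The CUL4 ligase, which DDB1 and DDB2 use to ubiquitinate XPC and histones at a lesion, had 1 of its 3 members past 1.5-fold, against 18.0% of all genes in that direction. CUL4A, the main scaffold, had 44.44 FPKM in the control library and 67.54 FPKM in the knockout, or 152% of control (log2 ratio 0.59). CUL4B, its X-linked paralog, had 7.77 and 9.45 FPKM (0.25), and RBX1, the RING subunit, had 48.72 and 53.56 FPKM (0.13), both within the middle range of all genes. CUL4A was inside 1.5-fold under 4 alternatives, with values from 0.45. The exons of CUL4A overlap those of PCID2 on the opposite strand over 437 bases, and PCID2 had 41.95 and 62.91 FPKM, a similar difference (0.57). Whether the counting used strand is not given in the sources used here, so reads of the overlap could belong to either gene.

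TFIIH, the helicase complex that opens DNA for repair and for transcription, had 1 of its 7 core genes past 1.5-fold, against 18.0% of all genes in that direction. ERCC2, which encodes the XPD helicase, was that gene, with 12.74 FPKM in the control library and 19.82 FPKM in the knockout, or 156% of control (log2 ratio 0.60), and with a pseudocount of 5 FPKM it had 0.48, inside 1.5-fold. ERCC3, which encodes the XPB translocase and was the most abundant core subunit, had 54.91 and 51.79 FPKM (-0.083). The level of ERCC2 for each ERCC3 was thus 0.232 in control and 0.383 in FZR1 ko. GTF2H1 had 19.98 and 24.23 FPKM (0.27), GTF2H3 had 20.35 and 17.62 FPKM (-0.20) and GTF2H4 had 33.09 and 28.65 FPKM (-0.20), and these are structural subunits of the core. GTF2H5, the small subunit lost in a form of trichothiodystrophy, had 3.97 and 3.83 FPKM (-0.041). GTF2H2 had 8.70 and 10.65 FPKM (0.26), but it has near-identical copies on chromosome 5, so its own share of the reads is uncertain. Summed with GTF2H2B, GTF2H2C and GTF2H2C_2, it had 35.28 FPKM in the control library and 43.48 FPKM in the knockout (0.29).

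The CDK-activating kinase, the module of TFIIH that phosphorylates RNA polymerase II and cell cycle kinases, had 1 of its 3 subunits past 1.5-fold, MNAT1, against 18.0% of all genes in that direction. CDK7, the kinase, had 25.01 and 23.88 FPKM (-0.064), and CCNH, its cyclin, had 14.34 and 14.29 FPKM (-0.0047). MNAT1, the assembly factor that holds the module together, had 2.37 FPKM in the control library and 5.72 FPKM in the knockout, or 241% of control. Its log2 ratio of 0.996 was the highest of the 29 genes and fell just short of 2-fold, while without a pseudocount it was 1.27. There were 0.0948 MNAT1 for each CDK7 in control and 0.240 in FZR1 ko. With a level below 10 FPKM in both libraries, MNAT1 is among the members most affected by the pseudocount, and with 5 FPKM it had 0.54, inside 1.5-fold. With the median of genes of like span subtracted, MNAT1 was at 0.31, also inside 1.5-fold, and CCNH was at -0.37, farther from 0.

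Damage verification and incision held the lowest ratios of the 29 genes, those of ERCC4 and ERCC5, though not under every alternative. XPC was lower than ERCC4 with a pseudocount of 5 FPKM (-0.63 against -0.61). The same held with the chromosome median subtracted (-0.76 against -0.72). ERCC4, which encodes XPF, the nuclease that cuts on the 5′ side of the lesion, had 6.41 FPKM in the control library and 2.45 FPKM in the knockout, or 38.2% of control (log2 ratio -1.10). Its obligate partner ERCC1 had 20.17 and 20.38 FPKM (0.014), so ERCC4 for each ERCC1 went from 0.318 to 0.120. ERCC5, which encodes XPG, the nuclease of the 3′ side, had 26.72 and 15.13 FPKM, or 56.6% of control (-0.78). Both catalytic nucleases were thus lower in the FZR1 ko library, while XPA, the scaffold that positions them, had 6.76 and 9.30 FPKM (0.41). Of the 4 genes 2 (50%) were at least 1.5-fold lower, against 17.6% of all genes. ERCC5 was at -0.47, inside 1.5-fold, with its readthrough transcript summed. ERCC4 was at -0.72, inside 2-fold, with the median of its chromosome subtracted. The 4 genes ran from -1.10 to 0.41 with a median of -0.38, which was -0.23 with ERCC5 summed with its readthrough transcript.

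ERCC5 shares exons with a readthrough transcript. This transcript, BIVM-ERCC5, joins the upstream gene BIVM to ERCC5 on chromosome 13 and shares 3641 exonic bases with ERCC5. It had 4.32 FPKM in the control library and 6.99 FPKM in the knockout, and BIVM had 5.81 and 12.00 FPKM. ERCC5 and the readthrough summed to 31.04 FPKM in the control library and 22.12 FPKM in the knockout, a log2 ratio of -0.47 that is inside 1.5-fold, and the readthrough was 13.9% of this sum in the control library and 31.6% in the knockout. How RSEM divided reads between them cannot be seen in FPKM. ERCC1 shares 1593 exonic bases with POLR1G on the opposite strand, which had 21.13 and 15.88 FPKM (-0.39), so the equal values of ERCC1 carry the same reservation. In all, 8 of the 29 members overlap exons of another gene that has a value in the table. The others are CCNH with RASA1, which had 2.65 and 4.85 FPKM (0.68), DDB1 with TKFC, ERCC2 with KLC3, GTF2H3 with EIF2B1, and CUL4A and LIG3, which are described with their partners. With every annotated gene counted, 15 members overlap exons of another gene, among them ERCC4 with 2227 bases of an lncRNA on the opposite strand, XPC with 1140 bases of XPC-AS1 and XRCC1 with 482 bases of another lncRNA on the opposite strand, so the reservation on strand holds for these too. MNAT1 shares 122 bases with an lncRNA on its own strand.

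Of the 5 genes of transcription-coupled repair, 1 (XAB2) was at least 1.5-fold lower, a share near the 17.6% of all genes. XAB2, an XPA-binding protein that also acts in splicing, had 70.02 FPKM in the control library and 44.27 FPKM in the knockout, or 63.2% of control (log2 ratio -0.65). With the median of genes of like span subtracted it was at -0.45, inside 1.5-fold. ELOF1, an elongation factor that sits on RNA polymerase II, had 63.98 and 48.36 FPKM (-0.40). ERCC6, which encodes the CSB ATPase, had 9.29 and 10.36 FPKM (0.14), and ERCC8, which encodes CSA, the substrate receptor of a CUL4 ligase, had 6.35 and 7.0 FPKM (0.12). UVSSA, which brings TFIIH to the stalled polymerase, had 3.0 and 2.47 FPKM (-0.21), and it passed 1.5-fold, at -0.62, with the GC and length trend removed. The Cockayne syndrome genes therefore kept their ratio, at 0.684 ERCC8 for each ERCC6 in control and 0.676 in FZR1 ko.

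Of the pair of sealing genes, XRCC1 was at least 1.5-fold higher, as were 18.0% of all genes, and LIG3 was not. XRCC1, the scaffold that carries ligase III to nicks in excision and single-strand break repair, had 11.42 FPKM in the control library and 22.63 FPKM in the knockout, or 198% of control (log2 ratio 0.93). LIG3, the ligase itself, had 7.88 and 9.30 FPKM (0.21), which turned to -0.20 with the GC and length trend removed, with 3754 exonic bases shared with RFFL on the opposite strand, which had 7.37 and 5.65 FPKM. There were 1.45 XRCC1 for each LIG3 in control and 2.43 in FZR1 ko.

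The related genes were taken from lists of 49 genes outside the 29, of which 44 belong to or assist the pathway and 5 are p53-induced repair genes outside it. Of the 44, 20 were lower and 24 higher in FZR1 ko, 0 passed 2-fold against 13.5% of all genes, and 9 (20.5%) passed 1.5-fold against 35.6%, with a median log2 ratio of 0.10. Of all 49, 1 (2.04%) passed 2-fold and 12 (24.5%) passed 1.5-fold, with a median of 0.034. RPA, which coats the opened strand, had a median of 0.44, with RPA1 at 29.43 and 43.79 FPKM, the highest of the 3 ratios (0.56), and RPA3 at 26.04 and 23.21 FPKM, the lowest (-0.16). Among the sliding clamp and its loader, PCNA had 327.80 and 212.29 FPKM (-0.62) and the large loader subunit RFC1 had 13.66 and 22.23 FPKM (0.66), and the median of the 6 was 0.058. Over all genes kept the median was -0.0048, with the 25th and 75th percentiles at -0.42 and 0.43. The gap-filling list had 7 of 10 genes higher and a median of 0.13, or 0.044 with the chromosome median subtracted. Its highest ratio was that of LIG1, the replicative ligase, at 16.69 and 28.91 FPKM (0.76), and its lowest that of POLE3, at 85.49 and 64.43 FPKM (-0.40).

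**Figure D3:**
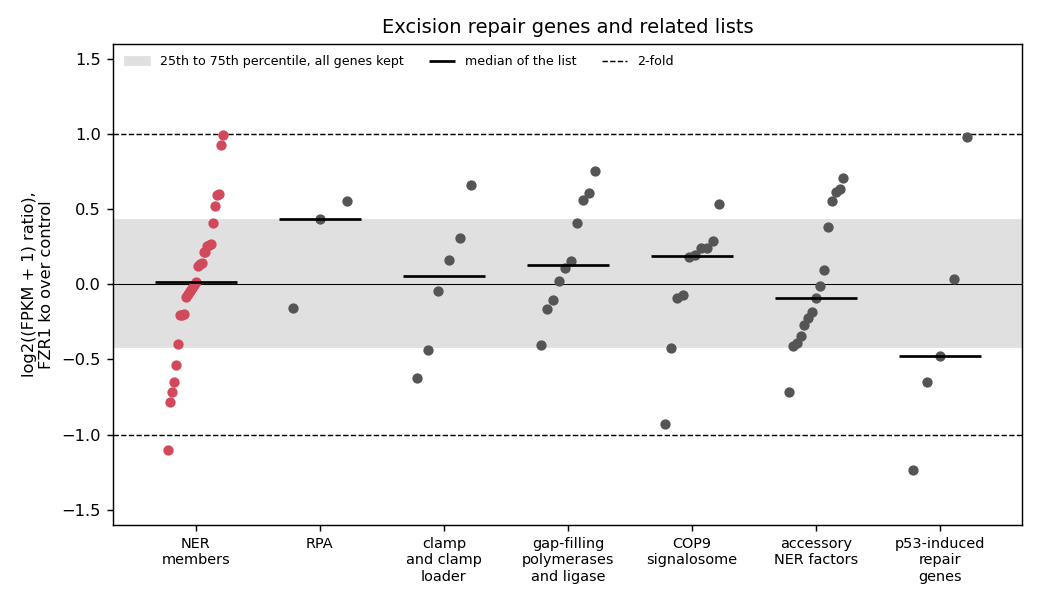
Log2 ratio of FZR1 ko over control for each gene of the excision repair list (red) and of 6 related lists (grey), with the median of each list as a black bar and the middle range of all genes kept as a grey band. The related genes spread on both sides of 0 as the excision repair genes do, and GADD45A, at -1.24, is the only one of them outside 2-fold on this scale.

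The COP9 signalosome, which removes NEDD8 from the CUL4 ligase, had a median of 0.19 over 10 genes. COPS2 stood lowest, at 43.33 and 22.31 FPKM (-0.93), and COPS7A highest, at 24.85 and 36.38 FPKM (0.53). The 15 accessory factors had a median of -0.093, from STK19 at 18.48 and 10.84 FPKM (-0.72) to INO80 at 3.23 and 5.92 FPKM (0.71). Of 5 p53-induced repair genes outside the pathway, GADD45A had 114.06 and 47.85 FPKM, a log2 ratio of -1.24, and was the only context gene past 2-fold with a pseudocount of 1 FPKM. RRM2B, a subunit of ribonucleotide reductase, had 12.45 and 7.55 FPKM (-0.65) and POLH, a translesion polymerase, had 15.30 and 10.71 FPKM (-0.48). TP53I3 had 27.56 and 28.25 FPKM (0.034), close to 0. FANCC, of the Fanconi anaemia pathway, had 1.02 and 2.99 FPKM (0.98, or 1.55 without a pseudocount and then past 2-fold). Its control level is near the filter limit of 1 FPKM. Its span falls in the group of longest genes described below, whose median was 0.69. The 5 genes thus lay on both sides of 0, the upper side resting on TP53I3 and FANCC. Their median was -0.48, or -0.64 with the GC and length trend removed, and 3 of the 5 passed 1.5-fold in either direction against 35.6% of all genes.

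Gene span, the distance from the first to the last base of a gene in the genome, moved with the difference between the libraries. The 13506 genes kept that have a span were divided into 10 groups of equal size by span. The median log2 ratio was -0.28 in the group of shortest genes, up to 2.88 kb, and 0.69 in the group of longest genes, from 123 kb. In the latter 26.2% of genes were at least 2-fold higher and 0.370% at least 2-fold lower in FZR1 ko. The Spearman correlation of span and log2 ratio was 0.39 over these genes, 0.42 over those in the expression range of the members and 0.41 over the 29 members, whose points share the same 2 libraries. The length of the transcript gave 0.19 over all genes and -0.079 over the members, and its GC content gave -0.010 and -0.21.

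The member with the highest ratio was also the one with the largest span. MNAT1 spans 235 kb, and with the median of its span group subtracted its log2 ratio was 0.31, inside 1.5-fold. CUL4A, with 58.9 kb, went to 0.45 and XAB2, with 10.02 kb, to -0.45, both inside 1.5-fold as well. ERCC4 (32.2 kb), ERCC5 (30.0 kb), XPC (33.5 kb) and XRCC1 (32.2 kb) lie in the middle of the range, where the medians are close to 0, and had -1.02, -0.70, -0.73 and 1.01 after the same subtraction, which puts XRCC1 past 2-fold. Of the 29 members, 15 fall in these middle groups, from 23.7 to 47.7 kb. The part of gene span in the member values was not tested beyond this subtraction.

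**Figure D4:**
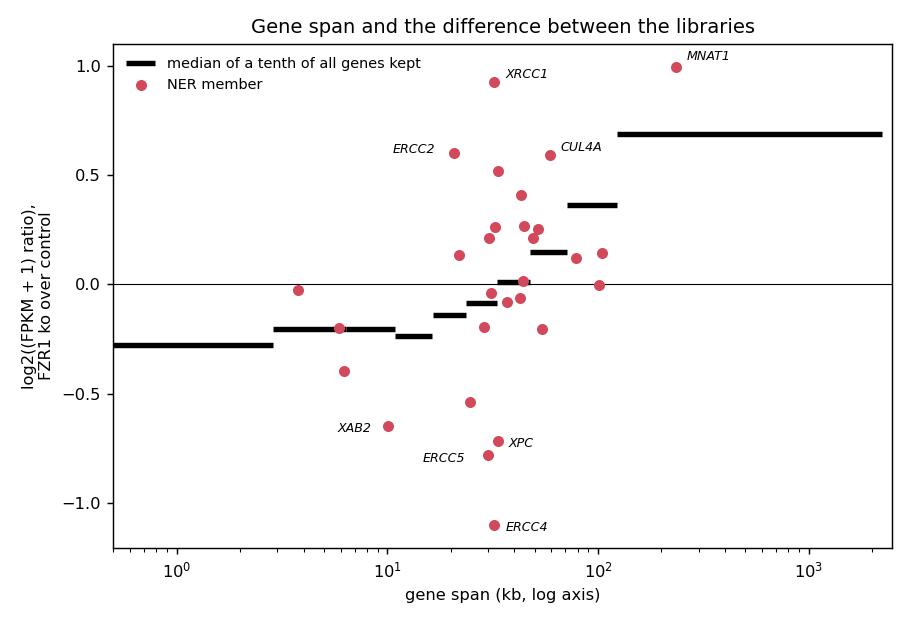
Log2 ratio of FZR1 ko over control against gene span in kb (log axis) for the 29 genes (red points), with the median of each of 10 equal groups of all genes kept as black bars that extend from the shortest to the longest gene of the group. The bars climb from -0.28 to 0.69, MNAT1 lies at the long end, and ERCC4, ERCC5, XPC and XRCC1 lie far from the bar of their own group.

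ERCC4 lies on chromosome 16, where the median log2 ratio was below 0 in each of the 10 windows of 10 Mb along its length. The median log2 ratio of the 679 genes kept on chromosome 16 was -0.38 and 73.0% of them were lower, whereas the medians of the 22 other chromosomes with at least 100 genes ran from -0.14 to 0.14 and their shares from 40.6% to 59.6%. Within 1 Mb of ERCC4, 8 genes had a median of -0.36, and in the window from 10 to 20 Mb that holds ERCC4 59 genes had a median of -0.39. With the median of the chromosome subtracted, the log2 ratio of ERCC4 was -0.72, past 1.5-fold and inside 2-fold. The part of chromosome 16 in the lower ERCC4 level was not tested, and no DNA was measured.

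**Figure D5:**
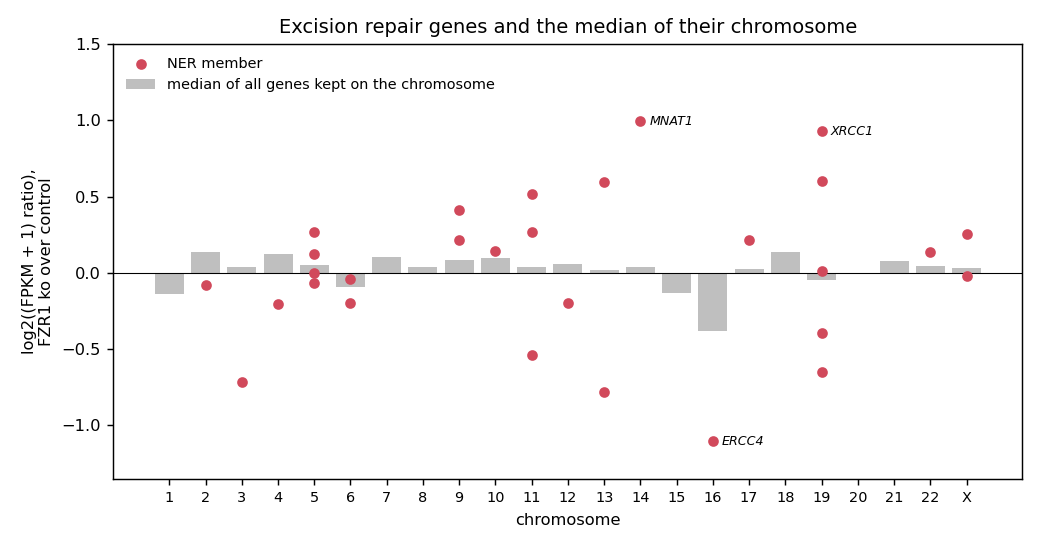
Log2 ratio of FZR1 ko over control for the 29 genes (red points) on their chromosomes, with the median log2 ratio of all genes kept on each chromosome as grey bars from 0. Chromosome 16, with ERCC4, has the lowest bar at -0.38, while MNAT1 and XRCC1 stand on chromosomes whose bars are near 0.

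The 8 genes kept within 1 Mb of MNAT1 had a median of -0.23 and the 32 around XRCC1 one of -0.16, opposite in sign to the gene itself. The 12 around XPC had a median of -0.23 and the 16 around CUL4A one of 0.38, the same sign as the gene. The 6 around ERCC5 had a median of -0.011, close to 0. The median was of opposite sign to the gene for the 35 genes around XAB2 (0.25) and the 49 around ERCC2 (-0.11), and likewise around DDB1 (-0.039) and DDB2 (0.21). The 5 members on chromosome 19 ran from XAB2 at -0.65 to XRCC1 at 0.93, and ERCC1 and ERCC2, which are close together there, had 0.014 and 0.60. The 4 members on chromosome 5 (GTF2H2, CDK7, CCNH and ERCC8) all lay between -0.064 and 0.26.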

How the data were processed

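Total RNA of 1 control and 1 FZR1 ko library, both treated with cisplatin, was sequenced by BGISEQ-500. Bowtie2 served for alignment and RSEM for quantification on hg38, and the authors deposited FPKM per Entrez gene ID to 2 decimals. Trimmomatic 0.36, HISAT2 2.1.0 and Bowtie2 2.2.5 are named in the submitters' processing notes. The annotation, the filters and the use of strand are not given in the sources used here. Of 24663 rows, 1630 lack a value in at least 1 library and were left out. Of the 23033 others, 22925 (99.5%) matched a RefSeq symbol of GRCh38.p14, and STK19 was matched through a synonym. PGBD3 and ERCC6-PGBD3 were not analysed here.

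Genes that reached 1 FPKM in either library were kept, and log2 ratios were computed with a pseudocount of 1 FPKM, which pulls low genes towards 0. With 1 library per group no test was made, and a gene was counted past 2-fold or 1.5-fold. FPKM holds no counts, so depth is unknown and no interval is given. The named genes are all 29 members, FZR1, genes that share reads with members, and the context genes past 2-fold or with the highest and lowest ratio of their list. TP53I3, RRM2B, POLH, FANCC and the marker genes were named in addition after their values were seen. The members and lists were chosen with earlier results of these data known. Transcript length, GC content and overlapping exons come from GENCODE 44, and gene spans and promoters from RefSeq. The promoter windows of UVSSA, ERCC6 and CDK7 are placed at another position than the gene start used for the span. Alternatives were other pseudocounts (0.1 and 5 FPKM), filters, a 4-fold threshold, centring, rescaling to the mean sum, protein-coding genes only, removal of the GC and length trend in 10 by 10 groups, and summed copies. The 2-fold count was checked on simulated 4-fold changes with small noise in genes of higher level. This check does not cover the 1.5-fold counts or genes of lower level. Python 3.11.15, numpy 2.4.6, pandas 2.3.3 and matplotlib 3.10.9 were used.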

Additional observations from a re-analysis of the deposited data

How the results depend on the processing

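No paired analysis was possible because there was a single library in each group, so that no test was made and no replicate could be left out. The background limited to the expression range of the members, the ratio without a pseudocount and the subtraction of chromosome or gene span medians were chosen after seeing the data. The median of the 29 members ranged from -0.019 to 0.049 over its 12 alternatives. The number of members past 2-fold, 1 at first, was 2 with a pseudocount of 0.1 FPKM, without one, after centring, after rescaling and with the gene span trend removed, 3 with the GC and length trend removed, and 0 at 4-fold, with the chromosome median subtracted or with 5 FPKM as the pseudocount. The number past 1.5-fold, 8 at first, was 5 with a pseudocount of 5 FPKM or the gene span trend removed, 7 with copies and readthrough summed or the chromosome median subtracted, and 0 at 4-fold. Over all genes, 1830 passed 2-fold, against 2818 and 453 with pseudocounts of 0.1 and 5 FPKM and 150 at 4-fold, and 4827 passed 1.5-fold, against 150 at 4-fold and 2351 with 5 FPKM as the pseudocount. Raising either setting lets fewer genes through by construction, and the cause of the other shifts was not tested. Of 348 member values under these alternatives, 338 stayed on their side of 1.5-fold, 9 were no longer past it and 1 (UVSSA, -0.62 with the GC and length trend removed) newly passed it. The members lost were CUL4A under 4 alternatives, MNAT1 under 2, and ERCC2, ERCC5 and XAB2 under 1 each. Those past 1.5-fold kept their direction throughout, and 8 members closer to 0 changed sign or, for CDK7, went to 0 under at least 1 alternative. Of 144 list medians, 13 moved by over 0.1. Among them the clamp list went to -0.13 with the gene span trend removed and 0.24 with the GC and length trend removed, gap filling to 0.28 with the gene span trend removed, and COP9 to 0.066 and the accessory list to 0.039 with the chromosome median subtracted. Unknown depth limits the members below 10 FPKM most.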
